A study of Mus musculus with 22 samples.

Results

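Messenger RNA for 7 subunits of the GABA-A receptor was measured in 3 organs of Tol mice and their WT littermates. The subunits were Gabra2, Gabra3, Gabra4 and Gabra5 (alpha), Gabrb1 and Gabrb2 (beta), and Gabrd (delta). They were chosen by name from the 34584 mouse genes listed in the cerebrum, cerebellum and thymus count tables, which hold 19 genes for subunits of this receptor. All 7 were found in the tables.

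Tol mice are C57BL/6 animals heterozygous for a single transgene, a long open reading frame of shuffled reporter protein fragments that the ubiquitous CAG promoter drives from a site 3′ of Col1a1. The line came from cassette exchange in C57BL/6J embryonic stem cells, and whether it rests on 1 clone is not given in the sources used here. WT mice are littermates without the transgene, and no group was treated. The libraries were 4 Tol and 4 WT cerebra, 2 Tol and 4 WT cerebella, and 4 Tol and 4 WT thymi, made from frozen tissue by poly(A) selection. The labels give no age, while the authors' methods state an age range in weeks for experimental animals as a whole. Nor do the labels say whether organs with the same number came from 1 mouse, so p-values measure the spread between these samples.

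GABA-A receptors are chloride channels that open when they bind GABA, the main inhibitory transmitter of the adult brain. Each channel is a ring of subunits, most often of alpha, beta and gamma type, with GABA bound between alpha and beta. The alpha subunit sets where the receptor sits and which drugs bind it. Alpha5 is known from hippocampal pyramidal cells. The delta subunit takes the place of gamma in receptors outside synapses, together with alpha4 in forebrain and with alpha6 in cerebellar granule cells, where it carries tonic inhibition. The thymus is a lymphoid organ with no such circuit.

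In GRCm38, Gabra2 lies on chromosome 5 from 70957597 to 71095849 (minus strand). On the same chromosome, Gabra4 runs from 71569749 to 71658308 (minus strand) and Gabrb1 from 71658113 to 72149037 (plus strand). The annotated starts of Gabra4 and Gabrb1 are 195 bases apart, and the genes overlap over 196 bases, of which 46 are exonic in both, on opposite strands. The strand setting of the read assignment is not given in the sources used here. Gabra3 lies on chromosome X from 72432681 to 72656848 (minus strand) and Gabra5 on chromosome 7 from 57407672 to 57510059 (minus strand). Gabrb2 lies on chromosome 11 from 42419757 to 42629028 (plus strand) and Gabrd on chromosome 4 from 155384980 to 155398112 (minus strand).

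The alpha subunits fall into groups by 1 residue of the benzodiazepine site, which is histidine in receptors that bind classical benzodiazepines and arginine in those that do not. The coding sequence around it is shown because it sets Gabra4 apart from the other 3 alpha subunits studied here. Each line is 63 bases of coding strand from the GENCODE vM21 transcripts of GRCm38, within 1 exon, and capitals mark the codon of that residue. Gabra6, the granule cell subunit, is added for its shared arginine.
Gabra2, chr5:71014475-71014537, minus strand, exon 5 of 10: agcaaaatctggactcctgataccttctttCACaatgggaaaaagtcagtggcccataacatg
Gabra3, chrX:72501138-72501200, minus strand, exon 5 of 10: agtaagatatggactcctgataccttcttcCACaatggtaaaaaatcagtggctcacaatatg
Gabra5, chr7:57488861-57488923, minus strand, exon 5 of 10: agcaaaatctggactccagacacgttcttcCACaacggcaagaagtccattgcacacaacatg
Gabra4, chr5:71641122-71641184, minus strand, exon 4 of 9: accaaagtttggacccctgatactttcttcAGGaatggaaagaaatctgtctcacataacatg
Gabra6, chr11:42317617-42317679, minus strand, exon 4 of 9: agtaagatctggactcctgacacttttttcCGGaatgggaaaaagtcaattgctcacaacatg
The codon encodes histidine in Gabra2, Gabra3 and Gabra5 and arginine in Gabra4 and Gabra6. Over the whole translated sequences, Gabra2, Gabra3 and Gabra5 were 72.2% to 74.7% identical to each other at aligned positions (global alignment), and Gabra4 was 61.2% to 64.3% identical to each of them. Gabrb1 and Gabrb2 were 80.3% identical, while Gabrd was 35.3% to 38.8% identical to the alpha subunits and 44.6% identical to each beta subunit.

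Total counts per library ran from 14543698 to 34776973. Levels are given in CPM, a count scaled to the depth of its library, with TMM factors over all 22 libraries. The Tol transcript had 448 to 4628 counts in the Tol libraries and 0 to 2 in the WT libraries. The brain label held for the neuron markers (6 of 6 detected), whose summed level was 4522 to 8757 CPM in the brain libraries and 17.1 to 26.3 CPM in thymus. The cerebellum label did not hold for Cerebellum Tol 2. Its 8 cerebellar granule cell markers summed to 190.2 CPM, against 5921 CPM in Cerebellum Tol 1 and 2435 to 5481 CPM in WT. Of the 8, 7 lay below all WT libraries and 1 above. Its 6 Purkinje cell markers also all lay below WT. Its 7 thalamus and midbrain markers summed to 465 CPM, against 71.9 to 239 CPM in WT, with 5 above and 1 below all WT libraries. The Tol against WT comparisons in cerebellum are therefore given with and without the library labelled Cerebellum Tol 2.
Among the WT cerebella, WT 1 had the highest thalamus and midbrain sum (239 CPM, the others at most 81.2 CPM). Of these 7 markers, 3 lay above and 1 below the other WT libraries in WT 1. In WT 2, with the lowest sum (71.9 CPM), 3 also lay above and 1 below. In WT 2 all 8 granule cell and all 6 Purkinje cell markers lay below the other WT libraries, and the 6 oligodendrocyte markers summed to 17279 CPM, against 5146 to 7192 CPM. The 4 choroid plexus markers summed to 4689 CPM in WT 4 and 1300.1 CPM in WT 2, against 14.2 and 15.4 CPM in WT 1 and WT 3. Among the cerebra, the 8 striatum markers summed to 3905 CPM in WT 3 and 2203 CPM in Tol 4, and to 251 to 473 CPM in the other 6. In bulk tissue, fewer cells of a type and less RNA per cell cannot be told apart.

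The alpha subunits Gabra2, Gabra3, Gabra4 and Gabra5 and the beta subunit Gabrb1 were higher in WT cerebrum than in WT cerebellum, while Gabrb2 and Gabrd did not pass the test and had their higher mean in cerebellum. With 4 libraries each, 5 of the 7 subunits passed an adjusted p of 0.05 by edgeR's quasi-likelihood test, all 5 higher in cerebrum. Of all genes tested, 49.8% passed and 24.2% passed as higher in cerebrum. The median log2 fold change was 1.18 over the 7 subunits and -0.04 over all genes.

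Gabra3, an alpha subunit of monoaminergic nuclei and cortex, was at 183, 193, 160 and 205 CPM in WT cerebra 1 to 4 and at 39.8, 62.1, 14.7 and 12.8 CPM in WT cerebella 1 to 4. The groups did not overlap, and cerebella WT 1 and WT 2 stood above WT 3 and WT 4. The means were 185 ± 19.2 and 32.4 ± 23.4 CPM (SD, n = 4 each), and the log2 fold change was 2.52 (SE 0.48, edgeR adjusted p = 0.00265).
Gabra5, the subunit named above for hippocampus, had the largest difference of the 7. It was at 119.7, 61.8, 37.0 and 79.8 CPM in the WT cerebra and at 10.6, 13.9, 1.20 and 0.916 CPM in the WT cerebella. Again the groups did not overlap, and cerebella WT 1 and WT 2 were the higher ones. The log2 fold change was 3.50 (SE 0.82, edgeR adjusted p = 0.00741).
Gabra4, the forebrain partner of delta, was at 118, 129, 207 and 121 CPM in the WT cerebra and at 42.3, 21.4, 41.9 and 33.5 CPM in the WT cerebella. Cerebrum WT 3 stood apart from the other cerebra, and no cerebellum reached the lowest of them (log2 fold change 2.05, SE 0.26, edgeR adjusted p = 0.000271).
Gabra2, an alpha subunit of forebrain synapses, was at 84.2, 65.8, 71.4 and 107 CPM in the WT cerebra and at 35.4, 33.5, 41.9 and 35.3 CPM in the WT cerebella. The cerebella were close to each other and all below the cerebra (log2 fold change 1.18, SE 0.15, edgeR adjusted p = 0.000336).

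The beta subunits, which form the GABA site with alpha, differed from each other. Gabrb1 was at 245, 153, 157 and 240.0 CPM in the WT cerebra and at 102, 123, 102 and 82.3 CPM in the WT cerebella, without overlap (log2 fold change 0.96, SE 0.20, edgeR adjusted p = 0.00357). Gabrb2 was at 215, 228, 223 and 175 CPM in the WT cerebra and at 331, 182, 309 and 209.8 CPM in the WT cerebella. These ranges overlapped, and the log2 fold change was -0.29 (SE 0.19, edgeR adjusted p = 0.246).
Gabrd was at 30.4, 77.0, 108 and 45.1 CPM in the WT cerebra and at 125, 72.5, 182 and 169 CPM in the WT cerebella. Cerebellum WT 2, with the lowest granule cell markers, was also the lowest in Gabrd and lay within the cerebrum range, and the part of those cells in the difference was not tested. Its log2 fold change was -1.07 (SE 0.41, edgeR adjusted p = 0.0579), which did not pass. It passed without Cerebellum WT 2, the lowest cerebellum (-1.26, edgeR adjusted p = 0.0282), and without Cerebrum WT 3, the highest cerebrum (-1.42, edgeR adjusted p = 0.0217). Leaving out either library by itself widens the difference, so these fits do not test it. Of the 8 fits that left out 1 library, the other 6 did not pass (edgeR adjusted p up to 0.146).

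**Figure D1:**
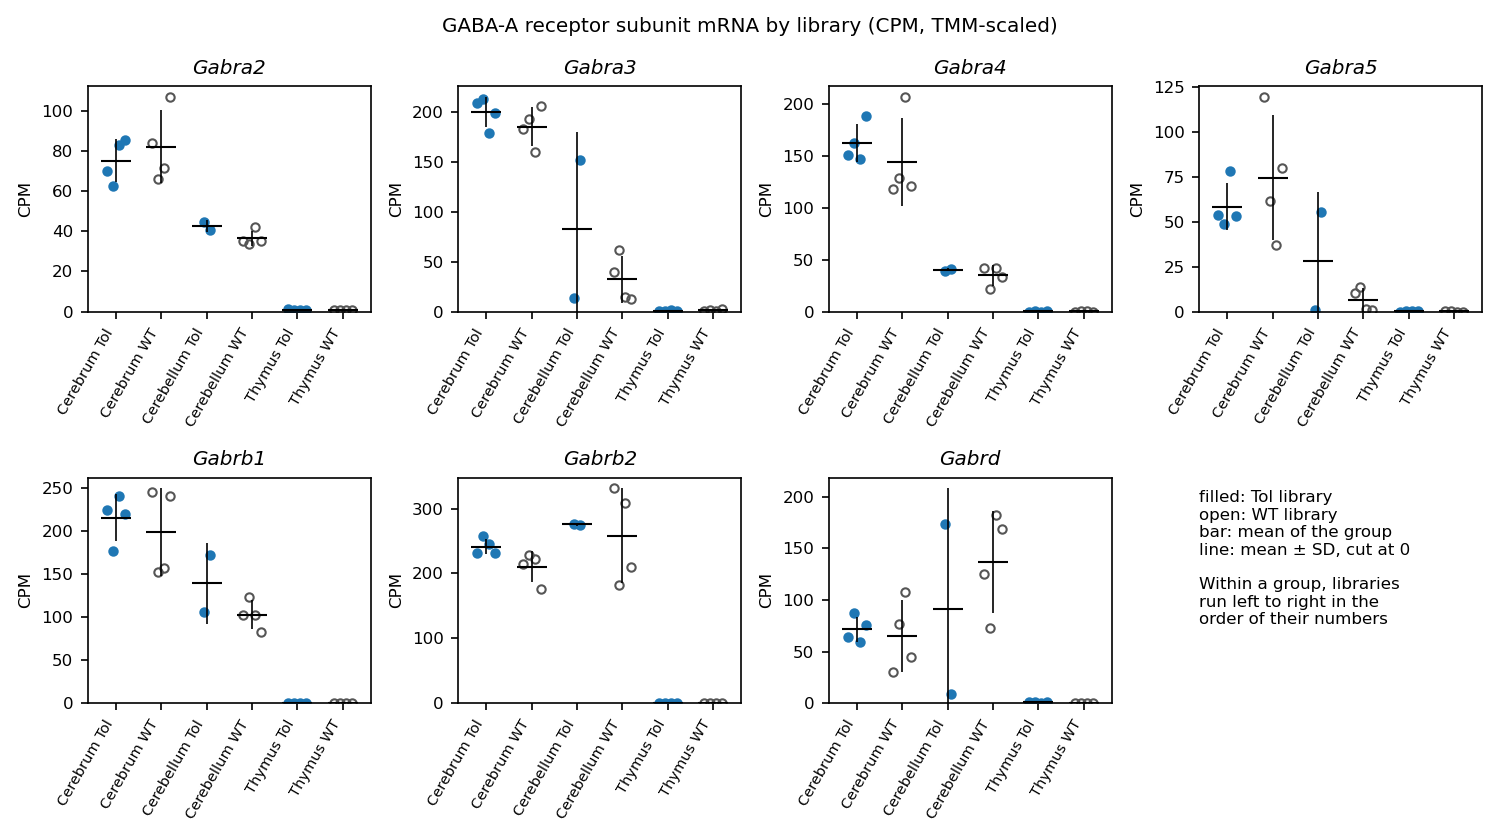
Level of each subunit (CPM, vertical axis) in every library, by organ and genotype; filled points are Tol, open points WT, bars group means and lines mean ± SD, cut at 0. All 14 brain libraries lie above the thymus libraries for every subunit, and the 2 Tol cerebella lie far apart for Gabra3, Gabra5 and Gabrd.

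Leaving out cerebella WT 1 and WT 2 keeps WT 3 and WT 4, the latter with the high choroid plexus markers. The libraries left out were the higher cerebella in Gabra3 and Gabra5 and the lower ones in Gabrd, and were chosen after the data were seen. A larger difference for these subunits was thus fixed by the choice, and the fit does not test it. The log2 fold change was then 3.78 for Gabra3 and 6.15 for Gabra5. Gabrd was at -1.40, while Gabra2, Gabra4 and Gabrb1 stayed called at 1.12, 1.96 and 1.13. The 4 Tol cerebra set against Cerebellum Tol 1 gave 3.87 for Gabra3, 6.22 for Gabra5 and -1.28 for Gabrd, with the lone cerebellum assumed to vary like the cerebra. With Cerebellum Tol 2 included, the same contrast called 2 of the 7 subunits, Gabra2 and Gabra4, and 2563 of all 16467 genes tested. Gabra5 fell to 1.04 (edgeR adjusted p = 0.590).

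**Figure D2:**
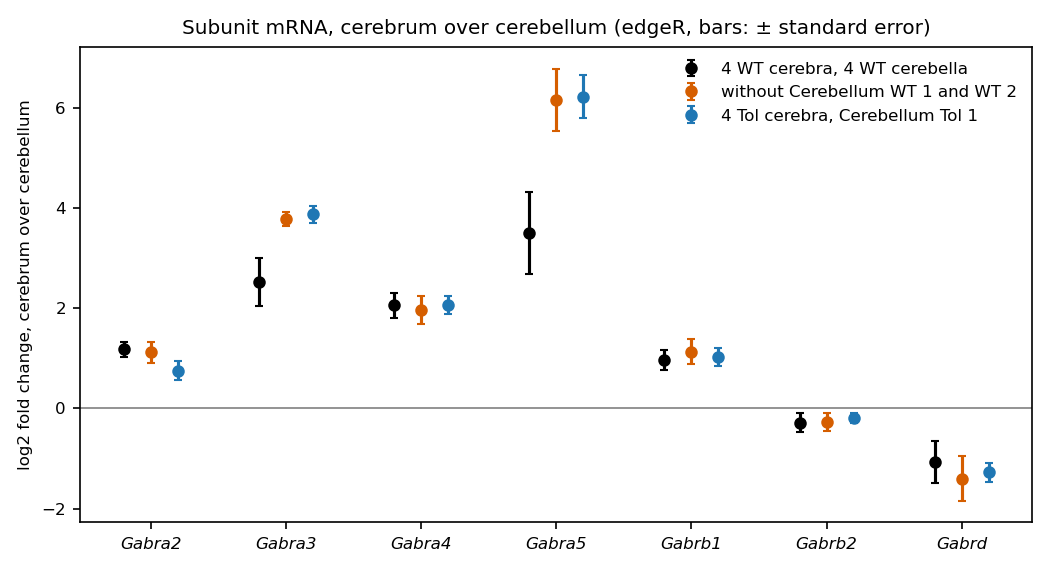
Log2 fold change of each subunit, cerebrum over cerebellum (vertical axis), from edgeR with standard errors, for all 8 WT libraries (black), without cerebella WT 1 and WT 2 (orange), and for 4 Tol cerebra against Cerebellum Tol 1 (blue). Gabra5 moves from 3.50 to 6.15 and 6.22, while Gabrb2 stays near 0 and Gabrd below it.

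To compare the subunits with each other, counts were divided by gene length and given as a percent of the sum over the 7 subunits. With the merged exon length, Gabra3 held 26.8% ± 3.26 (SD, n = 4) in WT cerebrum, Gabrb2 18.7% ± 2.02, Gabra5 14.2% ± 6.53, Gabra4 13.3% ± 3.72, Gabrd 12.8% ± 6.65, Gabrb1 8.13% ± 2.08 and Gabra2 6.09% ± 1.41. The ranges over the libraries overlapped among Gabrb2, Gabra5, Gabra4 and Gabrd. They also overlapped among Gabra5, Gabrd, Gabrb1 and Gabra2, so the order of these means is not a clear ranking. Differences between subunits within a library were not tested. In WT cerebellum Gabrd held 40.2% ± 11.5 and Gabrb2 34.4% ± 4.91, with overlapping spreads, and the other 5 held less. These were Gabra3 (7.74% ± 6.85), Gabrb1 (6.58% ± 2.14), Gabra4 (4.83% ± 0.673), Gabra2 (4.15% ± 0.491) and Gabra5 (2.11% ± 2.32).
The length used moved these shares. With the median transcript length, Gabrb2 had the largest share in both organs, at 31.8% in WT cerebrum and 54.3% in WT cerebellum. Gabra5 was then at 6.72% and Gabrd at 7.81% in WT cerebrum, and Gabrd at 23.3% in WT cerebellum. On either length, Gabra3 held the most of the 4 alpha subunits in WT cerebrum, and Gabrb2 and Gabrd held the most of the 7 in WT cerebellum. By merged exons, Cerebellum Tol 2 had 30.2% Gabra3, 14.5% Gabra5 and 2.48% Gabrd, against 2.74%, 0.206% and 47.4% in Cerebellum Tol 1.

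**Figure D3:**
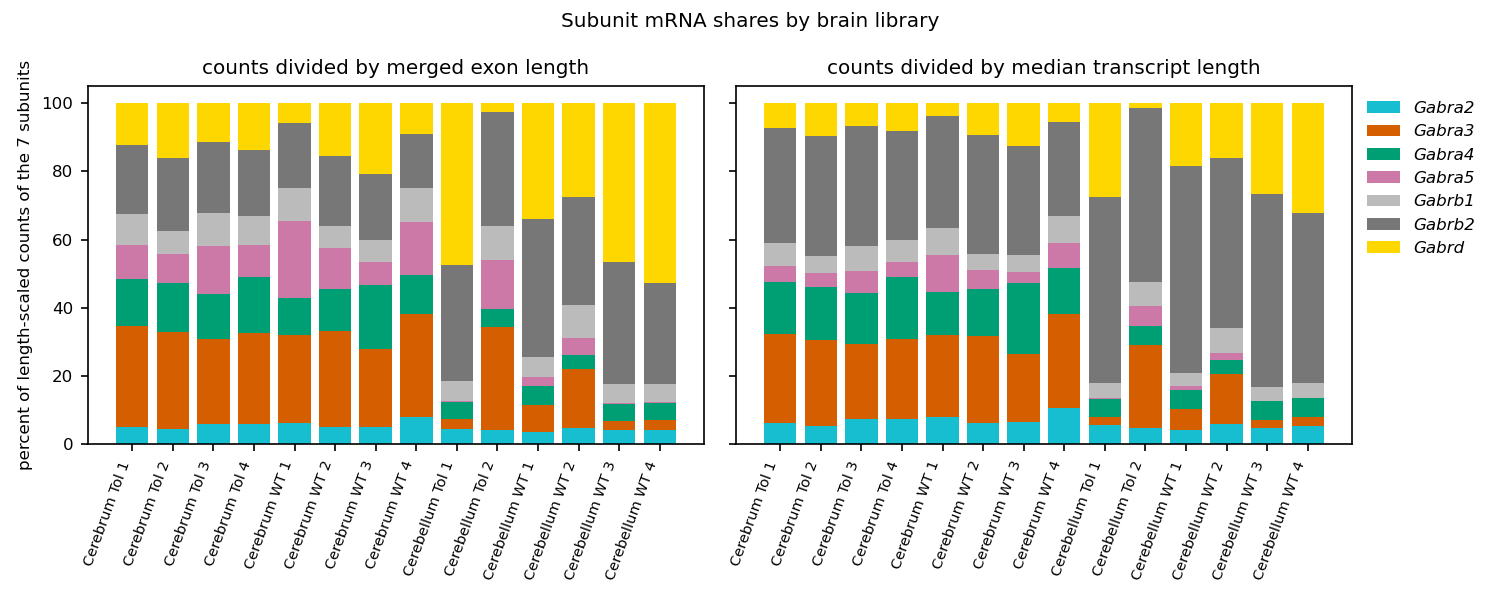
Share of each subunit (percent of the length-scaled counts of the 7 subunits, vertical axis) in the 14 brain libraries, with merged exon length on the left and median transcript length on the right. Gabrd makes up 27.7% to 52.7% in the WT cerebella by merged exons and 16.0% to 32.2% by median transcript length, and Cerebellum Tol 2 stands apart from the other cerebella on both.

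The subunits also varied among the 8 cerebra, Tol and WT together. Gabra5 and Gabrd ran in opposite order: Gabra5 was highest in WT 1 (119.7 CPM), where Gabrd was lowest (30.4 CPM), and lowest in WT 3 (37.0 CPM), where Gabrd was highest (108 CPM). Over the 8 cerebra, on log2(CPM + 1), Pearson's r was -0.96 (exact permutation p = 0.000471, Benjamini-Hochberg adjusted over 21 pairs of subunits 0.0099). Spearman's rho was -0.93 (exact permutation p = 0.00223, adjusted 0.0234). Without the 2 cerebra farthest from the median Gabra5 level, r was -0.83. Without Tol 4 and WT 3, the libraries with high striatum markers, it was -0.93. Within genotypes r was -0.79 in the 4 Tol and -0.98 in the 4 WT cerebra, too few for a test of their own.
For Gabra4 and Gabra5, r was -0.85 (exact permutation p = 0.00732, adjusted 0.0768) and rho -0.95 (exact permutation p = 0.00114, adjusted 0.0234), and r was -0.78 without Tol 4 and WT 3, which are also the 2 farthest in Gabra4. For Gabrb1 and Gabrd, r was -0.78 (exact permutation p = 0.02, adjusted 0.105) and rho -0.90 (exact permutation p = 0.00456, adjusted 0.0319), and r was -0.76 without the 2 farthest in Gabrb1 and -0.75 without Tol 4 and WT 3. The other 18 pairs had no adjusted p under 0.05 by either measure. Gabra4 was highest in WT 3 (207 CPM) and Tol 4 (188 CPM), the cerebra with the highest striatum marker sums. The 6 hippocampus markers summed to 444 CPM in WT 1, which had the most Gabra5, to 333 CPM in Tol 3 and 313 CPM in WT 4, and to 163 to 271 CPM in the others, and their part in these relations was not tested. The hippocampus markers also reached 292 to 351 CPM in the WT cerebella.

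**Figure D4:**
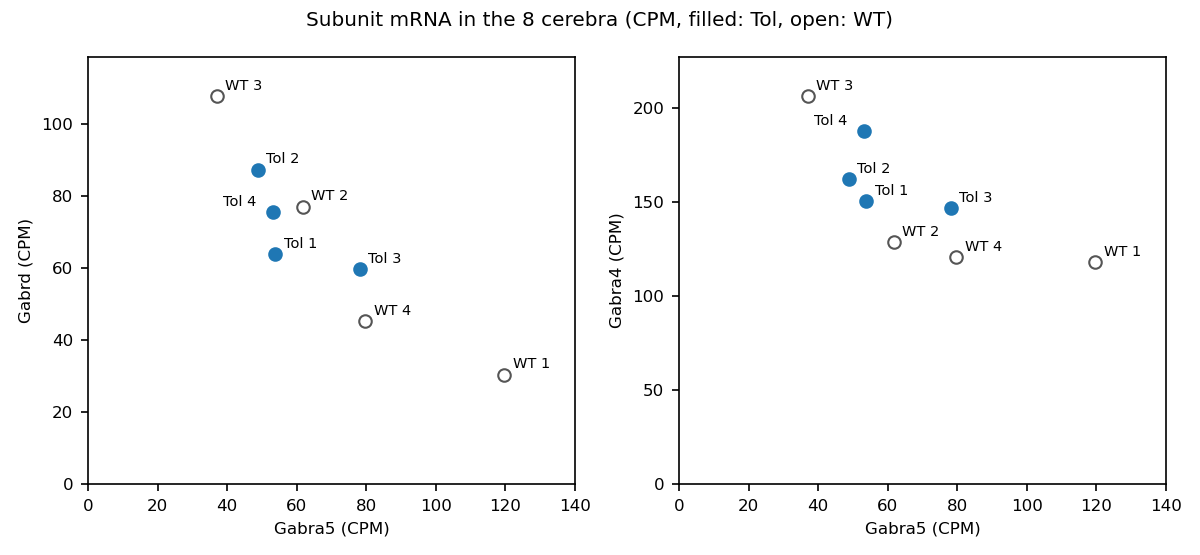
Gabrd (left) and Gabra4 (right) on the vertical axis against Gabra5 on the horizontal axis, all in CPM, for the 8 cerebra; filled points are Tol, open points WT. Both fall as Gabra5 rises, with WT 3 at one end and WT 1 at the other.

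Among other GABA genes in WT cerebrum against WT cerebellum, 17 of 35 tested passed, 10 of them higher in cerebrum, a share near that of all genes. Among them Gabra6 was lower in cerebrum (log2 fold change -8.78, SE 1.12, edgeR adjusted p = 0.00031). Of 5 tested gamma, delta and other subunits, 1 was higher, Gabrg3 (2.96, SE 0.48, edgeR adjusted p = 0.0011). The 1 tested rho subunit, Gabrr2, was lower (-1.48, edgeR adjusted p = 0.00672).
Of 14 genes for receptor scaffold and trafficking, 7 were higher and 1 lower, with the lowest p for Shisa7, an auxiliary protein of the receptor (3.42, SE 0.28, edgeR adjusted p = 3.2e-05). Of the 2 GABA-B receptor genes, Gabbr2 was higher (0.46, edgeR adjusted p = 0.0238). Of 5 genes for GABA synthesis, loading and breakdown, 1 was lower, Abat, the GABA transaminase (-0.50, edgeR adjusted p = 0.0434). Of 4 GABA uptake genes, 2 were lower, with the lowest p for Slc6a12 (-2.80, edgeR adjusted p = 0.00164). Of the 2 chloride transporter genes, Slc12a2, which loads cells with chloride, was lower (-1.21, edgeR adjusted p = 0.00162). It was higher in cerebella WT 2 (292 CPM) and WT 4 (237 CPM), the libraries with high choroid plexus markers, than in WT 1 (142 CPM) and WT 3 (181 CPM), and the part of those markers in the difference was not tested.

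In thymus the 7 subunits had few counts, set against a limit of detection of 3 counts in a library. Gabra5 had 0 to 7 counts in the 8 thymi, Gabra4 had 2 to 6, Gabrb2 had 2 to 10, Gabrb1 had 6 to 20, Gabrd had 4 to 28, Gabra2 had 11 to 47 and Gabra3 had 5 to 74. The highest thymus level of any of them was 2.21 CPM, Gabra3 in WT 4. All 7 were higher in WT cerebrum and all 7 in WT cerebellum than in WT thymus by edgeR. Of all genes, 86.5% were called between cerebrum and thymus (41.4% higher in cerebrum) and 83.9% between cerebellum and thymus (41% higher in cerebellum). The log2 fold changes over thymus for Gabra2 were 6.74 (SE 0.21, edgeR adjusted p = 4.71e-10) for cerebrum and 5.56 (SE 0.14, edgeR adjusted p = 4e-10) for cerebellum. For Gabra3 they were 7.03 (SE 0.25) and 4.53 (SE 0.61), with edgeR adjusted p of 1.24e-09 and 6.52e-05. The 2 contrasts share the WT thymi.

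Tol was compared with WT to ask whether carrying the transgene went with changes in other genes. None of the 7 subunits passed the test between Tol and WT in any organ. In cerebrum all 7 were tested, and 0 passed by edgeR or by DESeq2. Of all 15596 genes tested, edgeR called 0% and DESeq2 called 184. Before adjustment, 1 of the 7 was under 0.05 by edgeR, as were 9.66% of all genes. That one was Gabrb2, at 232, 257, 245 and 231 CPM in Tol cerebra 1 to 4 and 215, 228, 223 and 175 CPM in WT. Each Tol cerebrum lay above each WT cerebrum, as in 1 of the 7 subunits, while 6.46% of all genes tested had groups that did not overlap. The log2 fold change was 0.20 (SE 0.09, edgeR adjusted p = 0.509).
Gabra5 was at 53.8, 48.9, 78.1 and 53.2 CPM in the Tol cerebra, within the WT range of 37.0 to 119.7 CPM (log2 fold change -0.35, SE 0.31, edgeR adjusted p = 0.764). Gabrd was at 63.9, 87.2, 59.6 and 75.5 CPM in the Tol cerebra, also within the WT range (0.14, SE 0.34, edgeR adjusted p = 0.932). Gabra4 was at 151, 162, 147 and 188 CPM in the Tol cerebra, above 3 of the WT cerebra and below WT 3 (0.18, SE 0.18, edgeR adjusted p = 0.798). The log2 fold changes of Gabra2, Gabra3 and Gabrb1 lay between -0.12 and 0.12. Without Tol 4 and WT 3, again 0 of the 7 passed.

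In cerebellum the 2 Tol libraries lay further apart than the WT libraries did for Gabra3, Gabra5, Gabrb1 and Gabrd, and closer together for Gabra2, Gabra4 and Gabrb2. Gabra5 was at 0.783 CPM in Tol 1 and 55.3 CPM in Tol 2, and the WT libraries ran from 0.916 to 13.9 CPM. Gabra3 was at 13.7 CPM in Tol 1 and 152 CPM in Tol 2, against 12.8 to 62.1 CPM in WT. Gabrd was at 174 CPM in Tol 1 and 9.11 CPM in Tol 2, against 72.5 to 182 CPM in WT. Tol 2 thus lay outside the WT range for these 3 and, at 172 CPM against 82.3 to 123 CPM, for Gabrb1, while its Gabra2, Gabra4 and Gabrb2 lay within it. Like Gabrd, Gabra6 was lowest in Tol 2, with 767 CPM in Tol 1, 12.8 CPM in Tol 2 and between 332 and 798 CPM among the WT libraries.
Over both Tol libraries, 0 of 7 subunits passed by edgeR or DESeq2. Of all 16662 genes tested, edgeR called 0% and DESeq2 called 10. None of the 7 reached 0.05 unadjusted by edgeR (3.16% of all genes did). The log2 fold changes were 2.12 for Gabra5 (SE 1.56), 1.39 for Gabra3 (SE 0.996) and -0.57 for Gabrd (SE 1.003), all with an edgeR adjusted p of at least 0.957. Without Cerebellum Tol 2, all 3 turned their sign, to -3.07, -1.24 and 0.34 (edgeR adjusted p = 0.979 each), with the lone Tol library assumed to vary like the WT ones. The other 4 went from 0.47 to 0.043 (Gabrb1), 0.25 to 0.29 (Gabra2), 0.23 to 0.17 (Gabra4) and 0.12 to 0.10 (Gabrb2). Without Tol 2, WT 1 and WT 2, Gabra3 was at -0.01 and Gabra5 at -0.44.
The difference of the Tol effect between cerebellum and cerebrum also passed for 0 of 7 subunits by edgeR or DESeq2. Of all 17130 genes tested, edgeR called 0% and DESeq2 called 9. Before adjustment, 0 of the 7 were under 0.05 by edgeR, against 6.08% of all genes. The difference was 2.48 for Gabra5 (SE 1.43, edgeR adjusted p = 0.815), 1.29 for Gabra3 (SE 0.92) and -0.69 for Gabrd (SE 1.01, edgeR adjusted p = 0.915). Without Cerebellum Tol 2 it was -2.69 for Gabra5, -1.32 for Gabra3 and 0.24 for Gabrd, none passing. With Cerebellum Tol 2, which goes against its label, as the only Tol cerebellum, it was -4.00 for Gabrd (edgeR adjusted p = 0.0175). There the other groups supplied the spread of the lone library, and the same fit called 1499 of 17652 genes.

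In thymus 4 of the 7 subunits passed the filter on low counts. None of the 4 passed the test by edgeR or DESeq2. Of all 16248 genes tested, edgeR called 0.0985% and DESeq2 called 1267. Before adjustment, 2 of the 4 were under 0.05 by edgeR, as were 24.4% of all genes. Gabrd had 28, 27, 6 and 23 counts in Tol thymi 1 to 4 and 6, 4, 11 and 14 in WT thymi 1 to 4. Tol 1 and WT 4 were the deepest thymus libraries. In CPM, Gabrd was at 0.695, 1.24, 0.246 and 0.972 in Tol and 0.282, 0.194, 0.569 and 0.419 in WT. The groups overlapped (log2 fold change 1.08, SE 0.46, edgeR adjusted p = 0.183). Gabra3 had 10, 5, 28 and 19 counts in Tol and 22, 27, 13 and 74 in WT. In CPM it was at 0.248, 0.230, 1.15 and 0.803 in Tol and 1.03, 1.31, 0.672 and 2.21 in WT (-1.18, SE 0.50, edgeR adjusted p = 0.18). Gabra2 and Gabrb1 had log2 fold changes of 0.15 and 0.03.
Of the other GABA genes tested between Tol and WT, 0 of 34 passed in cerebrum, 0 of 36 in cerebellum and 0 of 24 in thymus, with 3, 2 and 2 at an unadjusted p under 0.05 by edgeR, against 9.66%, 3.16% and 24.4% of all genes. Without Cerebellum Tol 2, 0 of 36 passed in cerebellum and 0 were under 0.05 unadjusted. The lowest p in each belonged to Slitrk3 in cerebrum (0.29, SE 0.06, edgeR adjusted p = 0.223), Slc6a13 in cerebellum (1.42, SE 0.42, edgeR adjusted p = 0.957, and 1.08 without Tol 2) and Gabarap in thymus (0.17, SE 0.07, edgeR adjusted p = 0.157).

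**Figure D5:**
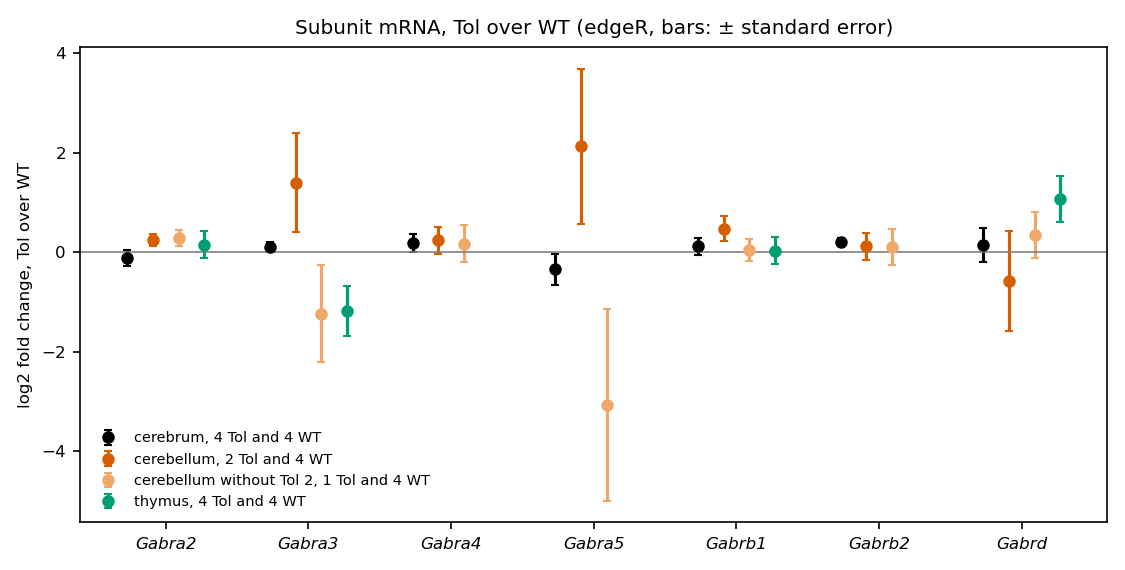
Log2 fold change of each subunit, Tol over WT (vertical axis), from edgeR with standard errors, in cerebrum, cerebellum with and without Cerebellum Tol 2, and thymus (4 subunits tested). Cerebrum values lie between -0.35 and 0.20, and the cerebellum values of Gabra3, Gabra5 and Gabrd change sign when Tol 2 is left out.

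For each subunit, the genes outside the receptor with the most similar pattern over the 22 libraries were found by Pearson's r of log2(CPM + 1). They were Thra and Tef for Gabra2, Shroom2 and Pak3 for Gabra3, Abi2 and Kcns2 for Gabra4, and Rab27b and Sertm1 for Gabra5. They were Erbb4 and Reps2 for Gabrb1, Fut9 for Gabrb2, and Cadps2 and Zfand5 for Gabrd. All r values were at least 0.991, and the libraries, Cerebellum Tol 2 among them, share the large step between brain and thymus. Over the 14 brain libraries alone, r was 0.99 for Gabra5 with Rab27b, 0.98 for Gabra3 with Shroom2 and for Gabrd with Cadps2, and 0.62 for Gabrb2 with Fut9.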

How the data were processed

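RNA was prepared with a stranded poly(A) kit and sequenced single-end (65 bp). The authors quantified transcripts with Salmon 0.14.1 on GRCm38 with the Tol sequence added, and deposited expected counts summed by gene, in whole numbers and not normalized. The submitters' processing notes also name edgeR 3.9. Library totals ran from 14543698 to 34776973, and the detection floor of 3 counts covers counting error only.

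Symbols and positions came from GENCODE vM21, which held 34465 of the 34585 identifiers listed (the Tol row included). Groups were compared in R 4.3.3 with edgeR 4.0.16 (TMM, filterByExpr, quasi-likelihood F test, Benjamini-Hochberg over all genes tested, threshold 0.05), fitting only the groups compared. The interaction was fitted over the 14 brain libraries. DESeq2 1.42.0, other size factors, no filter, a replicate block, other sets of libraries and leaving out each library were alternatives. The test was also run on counts simulated with known changes and with edgeR's own estimate of the spread. That run cannot show how the test behaves with a library that goes against its label. No replicate pair was identical or as close as sampling noise allows (chi-square over its degrees of freedom ran from 4.98 to 208.1).

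The members, gene lists and tests were chosen with earlier results of these data known. Named are the 7 subunits, of each list the gene with the lowest unadjusted p in a comparison, the 2 genes most similar to each subunit, and the Tol transcript. Gabra6 and Gabrp were added after their values were seen, and some items that this rule names are not reported here. The correlations among subunits and the fits that leave out libraries by their markers were added after seeing the data.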

Additional observations from a re-analysis of the deposited data

Results flagged for a closer look

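In the 35 sets of 4 libraries (7 subunits in 5 groups), the highest or lowest library was compared with its neighbour by Dixon's criterion, and 3 stood apart, where chance gives about 1 in 20 (1.75). Gabra4 in Cerebrum WT 3 was at 206.71 CPM, the next at 129 CPM, and this library also had the highest striatum marker sum. Gabra5 in Cerebrum Tol 3 was at 78.1 CPM, the next at 53.8 CPM, inside the WT range. Gabra4 in Thymus Tol 4 was at 0.254 CPM, the next at 0.138 CPM, which is 6 against 3 counts.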

How the results depend on the processing

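All 7 subunits stayed higher in brain than in thymus under every alternative run (98 and 119 values), and none passed between Tol and WT in any organ under any. Between WT cerebrum and WT cerebellum 110 of 119 values kept their call and none changed direction. Leaving out 1 library called 5 to 6 subunits, while all genes called ran from 6737 of 15997 to 8484 of 15993. DESeq2 called 6 subunits (8253 of 15877 genes), and the Tol libraries in place of WT called 2 (2563 of 16467 genes). Gabrd passed under 6 of its 17 alternatives (adjusted p 0.00208 to 0.816). Some of these left out the cerebella lowest in Gabrd or the cerebrum highest in it, which by itself widens the difference.

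Counts of all genes moved more. In cerebrum, where edgeR called 0 genes (1506 at an unadjusted p under 0.05), DESeq2 called 184, 1 fit of all 22 libraries 25, the fit without Tol 4 and WT 3 called 2, and leaving out 1 library 0 to 7 (7 without WT 3, 2 without Tol 3). In cerebellum, with 0 by edgeR (527 unadjusted), DESeq2 called 10 and leaving out 1 library 0 to 2 (2 without Tol 1). In thymus, with 16 by edgeR (3965 unadjusted), DESeq2 called 1267, no filter 130, all 22 libraries 29, and leaving out 1 library 0 to 2978 (2978 without Tol 1, 97 without Tol 3, 7 without WT 4 and 0 without each of the other 5). For the difference between cerebellum and cerebrum, with 0 by edgeR (1042 unadjusted), DESeq2 called 9, and leaving out 1 library called 0 to 1499 genes and 0 to 1 subunits (1499 and 1 without Cerebellum Tol 1; 1 gene without Cerebellum WT 4). The cause was not tested.

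Same-numbered Tol and WT libraries, from different mice, deviated together in some cases (correlation 0.67 for Cerebellum Tol 2 and WT 2, 0.44 for Cerebrum Tol 2 and WT 2). The lowest correlation was -0.38. Between the organs compared, which could share a mouse, the correlations ran from -0.15 to 0.11. All were positive for WT cerebrum with WT cerebellum (at most 0.11) and for WT cerebellum with WT thymus (at most 0.067). The numbers were not taken as pairs. The replicate block changed no subunit's call and called 5 genes in thymus. With it, the cerebellum log2 fold changes turned to -0.082 for Gabra3 and -0.63 for Gabra5.

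Leaving out 1 library turned the sign of uncalled Tol effects. In cerebrum Gabra2 ran from -0.21 to 0.031 and Gabrd from -0.10 to 0.49. In cerebellum Gabra3 ran from -1.24 to 2.27, Gabra5 from -3.07 to 3.10, Gabrb2 from -0.033 to 0.24 and Gabrd from -3.87 to 0.34. In thymus Gabra2 ran from -0.10 to 0.25 and Gabrb1 from -0.093 to 0.19. For the difference between cerebellum and cerebrum, Gabra3 ran from -1.32 to 2.17, Gabra4 from -0.16 to 0.18, Gabra5 from -2.69 to 3.46, Gabrb1 from -0.044 to 0.68, Gabrb2 from -0.20 to 0.080 and Gabrd from -4.00 to 0.24. Without Cerebellum Tol 2, WT 1 and WT 2, the cerebellum values were -0.0067 for Gabra3 and -0.44 for Gabra5, and the differences from cerebrum -0.083 for Gabra3, -0.089 for Gabra4 and -0.057 for Gabra5.

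With median transcript length, shares that moved by over 1 SD were Gabra2 (7.89% of the 7 subunits in WT cerebrum, 5.02% in WT cerebellum), Gabra5 (6.72% in cerebrum), Gabrb2 (31.8% and 54.3%) and Gabrd (23.3% in cerebellum). Of the 14 most similar genes, 6 stayed among the top 2 with a pseudocount of 0.1, 1 with Spearman's rho and 1 over the 14 brain libraries. In thymus the filter on low counts left 3 of the subunits untested (Gabra4, Gabra5 and Gabrb2, with at most 10 counts).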

Other observations

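Gabrp, the pi subunit, which was picked after its values were seen, was found in thymus rather than brain. It had 25 to 51 counts in the WT thymi and 38 to 62 in the Tol thymi, 0 in each of the 8 cerebra, which allows up to 3 counts per library, and 0 to 3 in the cerebella. Against WT cerebellum it was higher in WT thymus by edgeR (log2 fold change -4.86 for cerebellum over thymus, SE 0.59, edgeR adjusted p = 2.77e-05). Between Tol and WT thymus it did not pass (0.17, SE 0.30, edgeR adjusted p = 0.768).

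Gabra6 was found in cerebra Tol 2 (95 counts) and WT 4 (88 counts), while the other 6 cerebra had 0 to 15 counts. The same 2 libraries had the highest granule cell marker sums of the cerebra, 76.0 and 86.5 CPM, against 35.5 to 65.9 CPM in the others.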
